A study of Sus scrofa with 30 samples.

Results

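The ribosomal protein genes encode the protein part of the cytoplasmic ribosome. They were taken here as the annotated pig coding genes on chromosomes 1 to 18 whose symbol is RPL or RPS and a number, with an optional A, X or Y, together with RPLP0, RPLP1, RPLP2 and RPSA. The kinase genes of the RPS6K family and symbols ending in L were left out. The rule found 73 genes among 18722 coding genes of these chromosomes: 40 of the large subunit, 30 of the small subunit and 3 of the stalk. The symbol RPL18 occurred at 2 places, so the 73 genes carried 72 symbols.

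A ribosome is built from a small subunit, which reads the messenger RNA, and a large subunit, which joins amino acids. The stalk of the large subunit recruits the factors that drive translation. Growing oocytes store ribosomes, and the early embryo lives on this maternal supply until its own genome is transcribed, which in the pig begins in earnest around the 4-cell stage. H3K4me3, trimethylation of histone H3 at lysine 4, marks active and poised promoters. H3K27me3, trimethylation at lysine 27, is deposited by Polycomb complexes and is known for repressed genes, so genes used in every cell are not its usual carriers.

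The study profiled both marks in pig (Sus scrofa) oocytes and embryos fertilised in vitro, by native chromatin immunoprecipitation from very few cells (ULI-NChIP) with sequencing. H3K4me3 was measured at 8 stages, which were the germinal vesicle (GV) oocyte, the metaphase II (MII) oocyte, the 1-cell, 2-cell, 4-cell and 8-cell embryo, the morula and the blastocyst, and also in 4-cell embryos labelled siKDM5BC. The latter had received small interfering RNA against KDM5B and KDM5C, enzymes that remove methyl groups from H3K4, by injection at the zygote stage. They were set beside the 4-cell embryos of the stage series, for which the labels name no treatment. H3K27me3 was measured at 6 of these stages, all but the GV oocyte and the 1-cell embryo. Each of the 15 groups had 2 libraries, 30 in all. The labels name no breed, age, sex or pool size. Nothing in them shows that the replicates of a group were separate collections, so the p-values below speak only of the spread among these libraries, which may be technical. Each library pools cells, so fewer cells with a mark and less of the mark in each cell cannot be told apart.

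The files were lists of broad peaks called in each library, with no read totals, so sequencing depth is unknown. H3K4me3 lists covered from 31.6 Mb (4-cell replicate 2) to 142 Mb (1-cell replicate 2) over the stages, and 179 and 164 Mb in the siKDM5BC embryos. H3K27me3 lists covered from 1.28 Mb (2-cell replicate 2) to 109 Mb (blastocyst replicate 2). The H3K27me3 lists of the 8-cell libraries differed most between replicates, at 5.65 and 34.2 Mb, and these libraries are given apart. Peaks do not measure transcripts, so the knockdown of KDM5B and KDM5C was not checked here. At marker genes, H3K4me3 lay on 6, 6, 6 and 5 of 6 matched oocyte genes in the GV and MII libraries and on 3 of them in each blastocyst library. The 4-cell libraries marked 2 and 1 of them, and the siKDM5BC libraries 5 each. Of 8 blastocyst markers, 7 were marked in each GV and MII library, 5 to 7 in the later ones and 6 and 7 in the blastocyst, so this list did not set the blastocyst apart, and NANOG had no peak in any library. Among the 6 matched cumulus and granulosa cell genes, which mark cells that can adhere to oocytes, 2 to 5 were marked per library and CYP19A1 had no covered base pair (bp) in any. Of 5 sperm genes, 0 to 2 were marked.

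A gene was called marked when a peak touched the 1 kb on either side of either of its annotated ends. The amount of a mark was the number of bp covered by peaks within 5 kb of a gene end, taking in each library the end with more cover, so that it runs from 0 to 10001 bp. The annotation used here gave no strand, hence both ends were examined. Ribosomal protein genes were short, with a median annotated length of 3905 bp against 20737 bp for all coding genes, and 69 of the 73 were under 10 kb. Another coding gene lay within 1 kb of 36 of them and within 5 kb of 58, so a peak in the window can belong to a neighbour as well.

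H3K4me3 at the ribosomal protein genes was present at nearly every stage, but its extent changed several-fold. In the GV oocyte 72 and 69 of the 73 genes were marked in the 2 libraries, beside 77.2% and 71.9% of all coding genes. MII oocytes had the fewest, 53 and 64 (all genes 60.7% and 73.3%). The 1-cell libraries had 69 and 71 (65.7% and 76.7%), the 2-cell libraries 72 and 70 (76.7% and 76.5%) and the 4-cell libraries 70 each (75.2% and 68.3%). In the 8-cell embryo 70 and 71 were marked (71.2% and 74.0%), and in the morula (73.9% and 74.9%) and the blastocyst (75.4% and 75.3%) 72 in each library. MII oocyte replicate 1 thus stood lowest, and every library from the 1-cell stage on had at least 69 of the 73.

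In 43 genes H3K4me3 was found in all 16 stage libraries, beside 40.0% of all coding genes. Of the other 30, 23 lacked it in a single library, and for 15 of these the library was MII oocyte replicate 1. The remaining 7 lacked it in at least 2 libraries. The RPL18 entry on chromosome 1 (84378453 to 84379052, 600 bp, 165981 bp from its nearest coding gene) lacked it in 15 of 16, whereas RPL18 on chromosome 6 (53974353 to 53978681) was marked in all. Of the 4 genes annotated as longer than 10 kb, 3 were among the 7, including RPL13A (16981 bp) and RPS3 (17466 bp), each unmarked in 4 libraries. Both nevertheless had covered bp within 5 kb of an end in every library. RPL32 and RPS27 were unmarked in 2 libraries each.

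The covered length rose late. The median over the 73 genes was 2963 and 1792 bp in the GV oocyte and fell to 915 and 1413 bp in the MII oocyte, the lowest of the stages. It was 2557 and 3459 bp in the 1-cell, 3707 and 3124 bp in the 2-cell, and 2655 and 1952 bp in the 4-cell embryo. The 8-cell libraries had 3765 and 3989 bp, the morula libraries 5676 and 6082 bp, and the blastocyst libraries 6098 and 5992 bp. Morula and blastocyst values lay above those of every earlier library and overlapped each other. As group means, the MII oocyte had 1164 ± 352 bp (SD, n = 2), the 8-cell embryo 3877 ± 158 bp and the blastocyst 6045 ± 75 bp, while the median of all coding genes had moved from 1066 ± 335 bp to 1413 ± 112 bp and 2312 ± 26.2 bp.

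**Figure D1:**
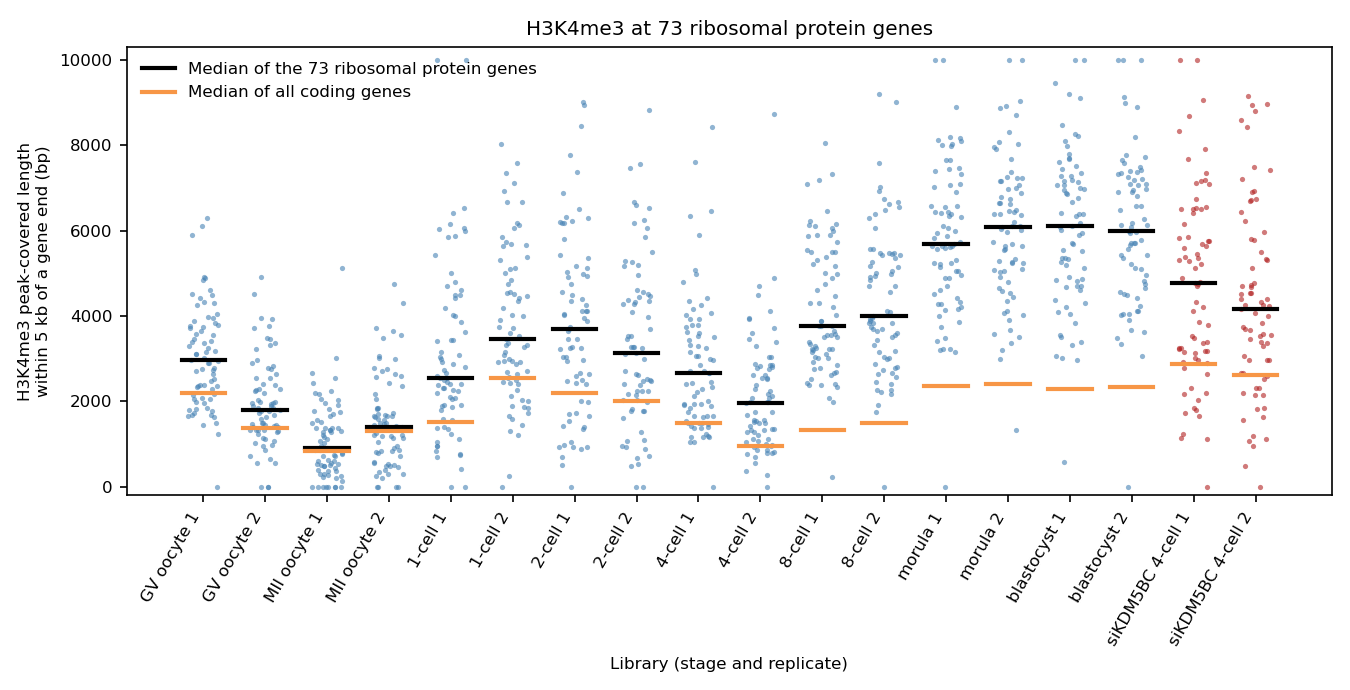
H3K4me3 at each of the 73 ribosomal protein genes (points), as peak-covered bp within 5 kb of a gene end (y axis), in each of 18 libraries (x axis; red, siKDM5BC 4-cell), with the median of the 73 genes (black) and of all coding genes (orange). The medians of the 73 genes and of all genes nearly coincide in the MII oocyte (915 and 829 bp in replicate 1) and lie far apart from the 8-cell stage on (6098 and 2293 bp in blastocyst replicate 1).

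Because the lists differ in length, each gene was also ranked among all coding genes of the same library. The median percentile of the ribosomal protein genes was 67.0 and 62.0 in the GV oocyte and 53.7 and 53.5 in the MII oocyte, close to the middle of all genes. It was 73.1 and 65.1 in the 1-cell, 72.9 and 71.1 in the 2-cell, and 78.9 and 81.0 in the 4-cell embryo. The 8-cell libraries stood at 91.5 and 91.1, and later stages stayed near that rank, with 90.3 and 92.2 in the morula and 90.9 and 89.8 in the blastocyst. By rank the 8-cell libraries therefore overlapped the later stages, which by covered length they did not. Among the 10% of coding genes with most H3K4me3, there were 2 ribosomal protein genes in the MII oocyte, 15 in the 2-cell, 23 in the 4-cell, 44 in the 8-cell embryo, 39 in the morula and 38 in the blastocyst.

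**Figure D2:**
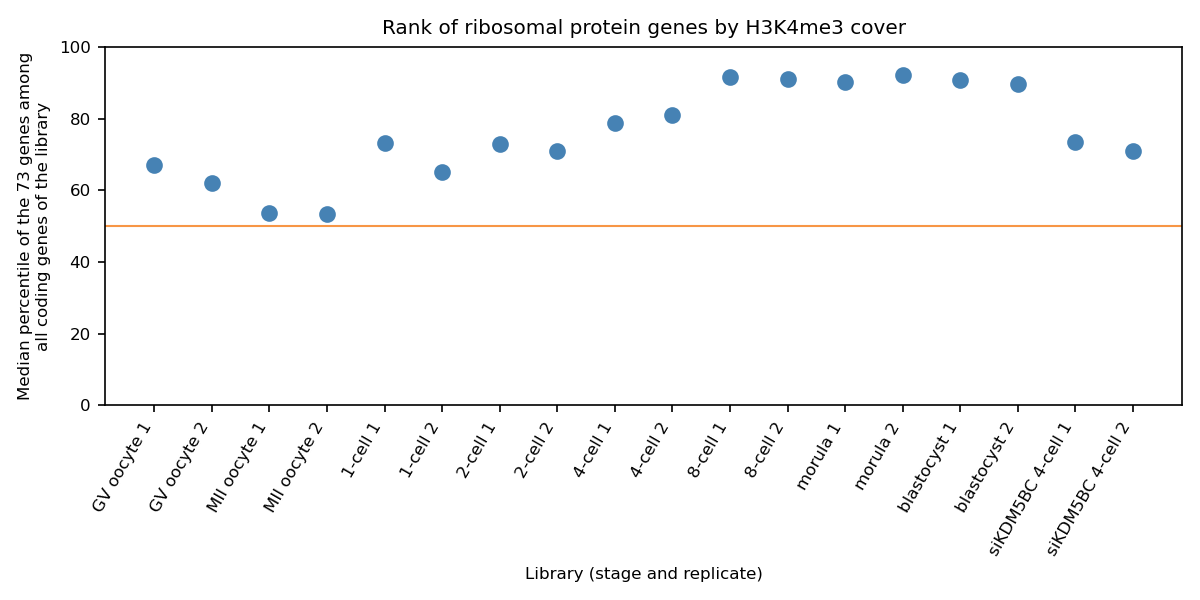
Median percentile of the 73 ribosomal protein genes among all coding genes of the same library by H3K4me3-covered bp (y axis) in each of 18 libraries (x axis); the line is at the middle of all genes. The points run from 53.5 in MII oocyte replicate 2 to 92.2 in morula replicate 2, and those of siKDM5BC 4-cell embryos, 73.5 and 70.9, lie below the other 4-cell points, 78.9 and 81.0.

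Peak strength was taken from the authors' fold enrichment and −log10 q of each peak. With only peaks of −log10 q of 3 or more, 67 and 19 genes were marked in the GV oocyte (all genes 54.6% and 22.3%) but no more than 3 in any MII, 1-cell or 2-cell library (0.171% to 3.11% of all genes). There were then 66 and 33 in the 4-cell embryo (all genes 63.4% and 39.9%), 69 in each 8-cell library (55.6% and 60.6%), 72 and 71 in the morula (70.9% and 70.7%), and 72 in each blastocyst library (71.8% and 72.1%). The strongest peak at a gene had a median fold of 3.36 and 3.41 in the MII oocyte, 4.72 and 4.17 in the 4-cell, 5.11 and 5.70 in the 8-cell embryo, 10.4 and 9.48 in the morula, and 8.73 and 9.03 in the blastocyst. Other marked genes had 3.42 and 3.49, 4.85 and 4.39, 5.05 and 5.61, 9.26 and 8.28, and 9.0 and 9.4 in the same libraries, close to the values of the ribosomal protein genes.

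Peaks that were wide or covered whole genes were found at some ribosomal protein genes at most stages and at most of them in the morula and blastocyst. Peaks of 5 kb or wider reached 1 and 0 in the GV oocyte (all genes 5.89% and 2.30%) and 0 in both MII libraries (0.358% and 1.94%). They reached 6 and 9 in the 1-cell (1.73% and 8.95%), 9 and 5 in the 2-cell (5.65% and 2.88%) and 3 and 1 in the 4-cell embryo (2.04% and 0.513%). They reached 13 and 16 in the 8-cell embryo (2.39% and 2.66%), 39 and 46 in the morula (11.6% in both libraries), and 47 and 43 in the blastocyst (12.8% and 13.8%). Entire gene bodies were counted beside those of the other coding genes under 10 kb. They lay under peaks at 2 and 0 genes in the GV oocyte (other short genes 5.01% and 2.62%), 0 in each MII library (0.655% and 2.34%), 5 in each 1-cell library (1.70% and 6.13%) and 1 and 2 in the 2-cell embryo (4.55% and 3.5%). The 4-cell libraries had 5 and 2 (3.58% and 1.36%), the 8-cell libraries 12 and 18 (2.42% and 2.99%), the morula libraries 40 and 37 (6.44% and 6.25%), and the blastocyst libraries 41 and 45 (7.53% and 7.80%). In the blastocyst libraries the median percentile of the other coding genes under 10 kb was 42.1 and 41.6. Of these genes 61.2% and 60.8% were marked there, against 98.6% of the ribosomal protein genes in each library. The part of gene length in the wide cover was not tested.

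The gene midpoint was covered in 21 and 7 of the 73 genes in the GV oocyte (other coding genes under 10 kb 19.5% and 16.3%) and in 1 in each MII library (10.8% and 17.0%). It was covered in 20 and 25 in the 1-cell (14.0% and 24.4%), 23 and 20 in the 2-cell (25.1% and 22.2%) and 25 and 19 in the 4-cell embryo (18.3% and 12.5%). There were 57 and 55 in the 8-cell embryo (14.5% and 17.4%) and 69 in each morula (20.3% and 21.1%) and blastocyst library (24.1% and 24.6%). Over coding genes of every length the share ran from 5.07% (4-cell replicate 2) to 13.1% (2-cell replicate 1) in the stage libraries. Of the 62 genes longer than 2 kb, 43 and 51 had a peak at one end and none at the other in the MII oocyte, 26 and 24 in the 8-cell embryo, and 7 in each blastocyst library. The better covered end was usually the same: in 32 of the 62 no stage library had more cover at the opposite end, and in 47 at most 2 libraries did. These counts by end were made for the ribosomal protein genes alone. Whether they differ from those of other genes of such length was not tested.

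**Figure D3:**
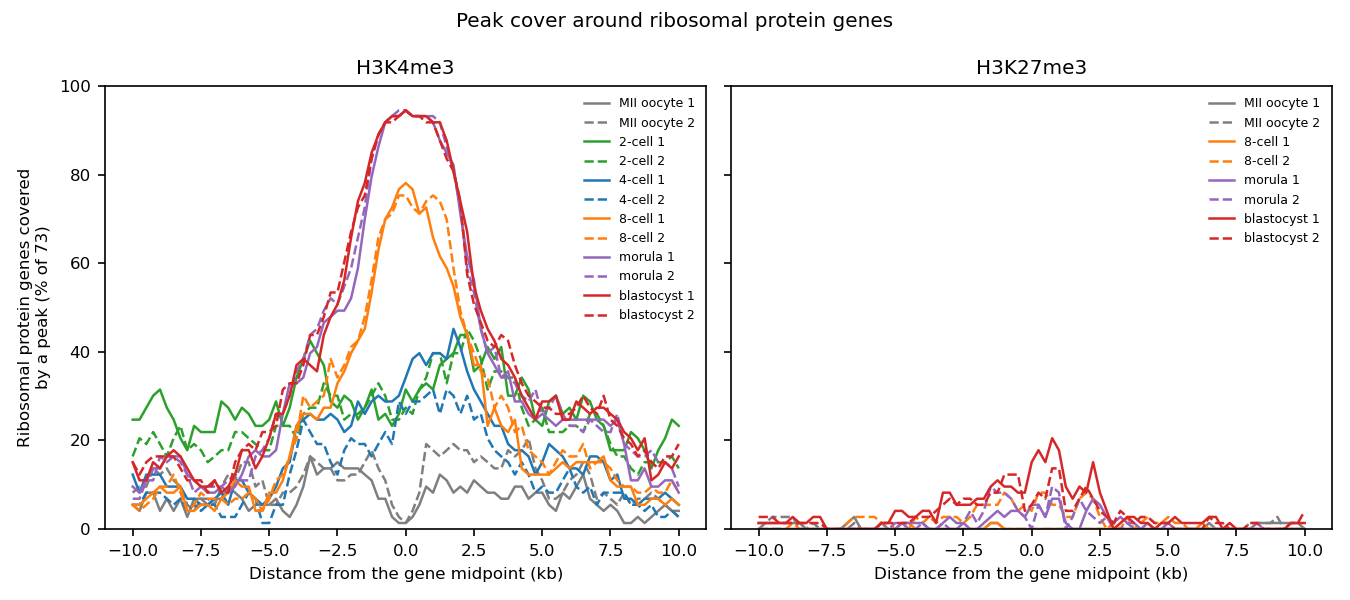
Share of the 73 ribosomal protein genes (y axis, %) covered by an H3K4me3 (left) or H3K27me3 (right) peak at each distance from the gene midpoint (x axis, kb; no strand), with one line for each library. H3K4me3 covers the midpoint of 1.37% of genes in each MII library, 78.1% and 75.3% in the 8-cell libraries and 94.5% in each blastocyst library.

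Differences between groups were tested for each gene in a single linear model of covered bp (limma) over all 18 H3K4me3 libraries and 17527 coding genes, among them all 73 ribosomal protein genes. A gene was called at a Benjamini-Hochberg (BH) adjusted p of 0.05 over all genes tested. The median standard error of a difference was 907 bp for the ribosomal protein genes.

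Between the MII oocyte and the blastocyst, 68 of 73 ribosomal protein genes (93.2%) gained covered length and 0 lost it, while 38.0% of all genes tested rose and 4.32% fell. The median difference was 4842 bp, against 1160 bp over all genes. In 72 of 73 both blastocyst libraries lay above both MII libraries, as they did in 59.4% of all coding genes. RPL32 and 1 further gene were unmarked in both MII and marked in both blastocyst libraries, as were 6.13% of all coding genes. By subunit, 38 of 40 large-subunit genes (median 5040 bp), 28 of 30 small-subunit genes (median 4162 bp) and 2 of 3 stalk genes rose. Leaving out each library in turn kept the count between 59 and 65 (24.1% to 33.3% of all genes).

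The stalk genes differed among themselves. RPLP0 (chromosome 14, 40219196 to 40223943), which anchors the stalk to the large subunit, had 233 and 832 bp in the MII oocyte and 8091 and 7779 bp in the blastocyst. It rose by 7402.5 ± 720 bp (SE; limma, BH-adjusted p = 0.000003). RPLP2 (chromosome 2, 507891 to 509818), which forms a dimer with RPLP1 at the stalk's tip, was already at 10001 and 6667 bp in the 1-cell embryo and stayed between 7336 and 9139 bp in every library from the 2-cell stage to the blastocyst. Its MII values were 1500 and 4745 bp, and it rose to the blastocyst by 6004 ± 1298 bp (limma, BH-adjusted p = 0.00185). RPLP1 had 1315 and 2431 bp in the MII oocyte and 5199 and 4124 bp in the blastocyst, a difference of 2788.5 ± 1160 bp that did not pass (limma, BH-adjusted p = 0.0642).

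In the large subunit, RPL24 (chromosome 13, 157411933 to 157418663), part of a bridge to the small subunit, showed the largest rise. It had 767 and 1252 bp in the MII oocyte, 6468 and 6612 bp in the 8-cell embryo, 10001 bp in each morula library, and 10001 and 8984 bp in the blastocyst, 8483 ± 901 bp above the MII oocyte (limma, BH-adjusted p = 0.000006). RPL23A (chromosome 12, 44956851 to 44960737), which lies at the tunnel where new proteins leave, already stood high in the MII oocyte. It had 5116 and 4303 bp there, more than any other ribosomal protein gene in replicate 1 but less than RPLP2 (4745 bp) in replicate 2. RPL23A filled the window with 10001 bp in all 4 morula and blastocyst libraries. RPL5 and RPL11, which carry the 5S ribosomal RNA into the large subunit, rose by 5137.5 ± 703 bp (limma, BH-adjusted p = 0.000050) and 3935 ± 598 bp (limma, BH-adjusted p = 0.000117). RPL3, close to the catalytic centre, rose by 5736.5 ± 1194 bp (limma, BH-adjusted p = 0.00141). RPL7 rose by 7631 bp from 2236 and 859 bp in the MII oocyte. RPL36 was among the least changed, from 2548 and 2998 bp to 4036 and 5655 bp, and did not pass (limma, BH-adjusted p = 0.196).

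In the small subunit, RPS25 (chromosome 9, 46237911 to 46242174) rose most, from 1388 and 1450 bp in the MII oocyte to 8222 and 10001 bp in the blastocyst. RPS27 rose from 0 and 263 bp to 7436 and 7486 bp. RPS6, the substrate of the S6 kinases, rose by 4995 ± 922 bp (limma, BH-adjusted p = 0.000562), and RPS19, mutated in Diamond-Blackfan anaemia, by 5179 ± 784 bp (limma, BH-adjusted p = 0.000112). RPSA, also known as the laminin receptor, rose by 5386 ± 653 bp (limma, BH-adjusted p = 0.000019). RPS3, at the channel where messenger RNA enters, rose by 4179 ± 1008 bp (limma, BH-adjusted p = 0.00391). RPS27A, whose protein is made as a fusion with ubiquitin, was one of the 6 genes with least H3K4me3 over all stages but rose by 3645 ± 580 bp (limma, BH-adjusted p = 0.000171). RPS20 (729 and 2169 bp, then 3069 and 3337 bp) and RPS15 (1954 and 796 bp, then 3546 and 4041 bp) did not pass, although their groups did not overlap. The RPL18 entry on chromosome 1, of the large subunit, was at 0 bp in each MII library and at 592 and 0 bp in the blastocyst.

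**Figure D4:**
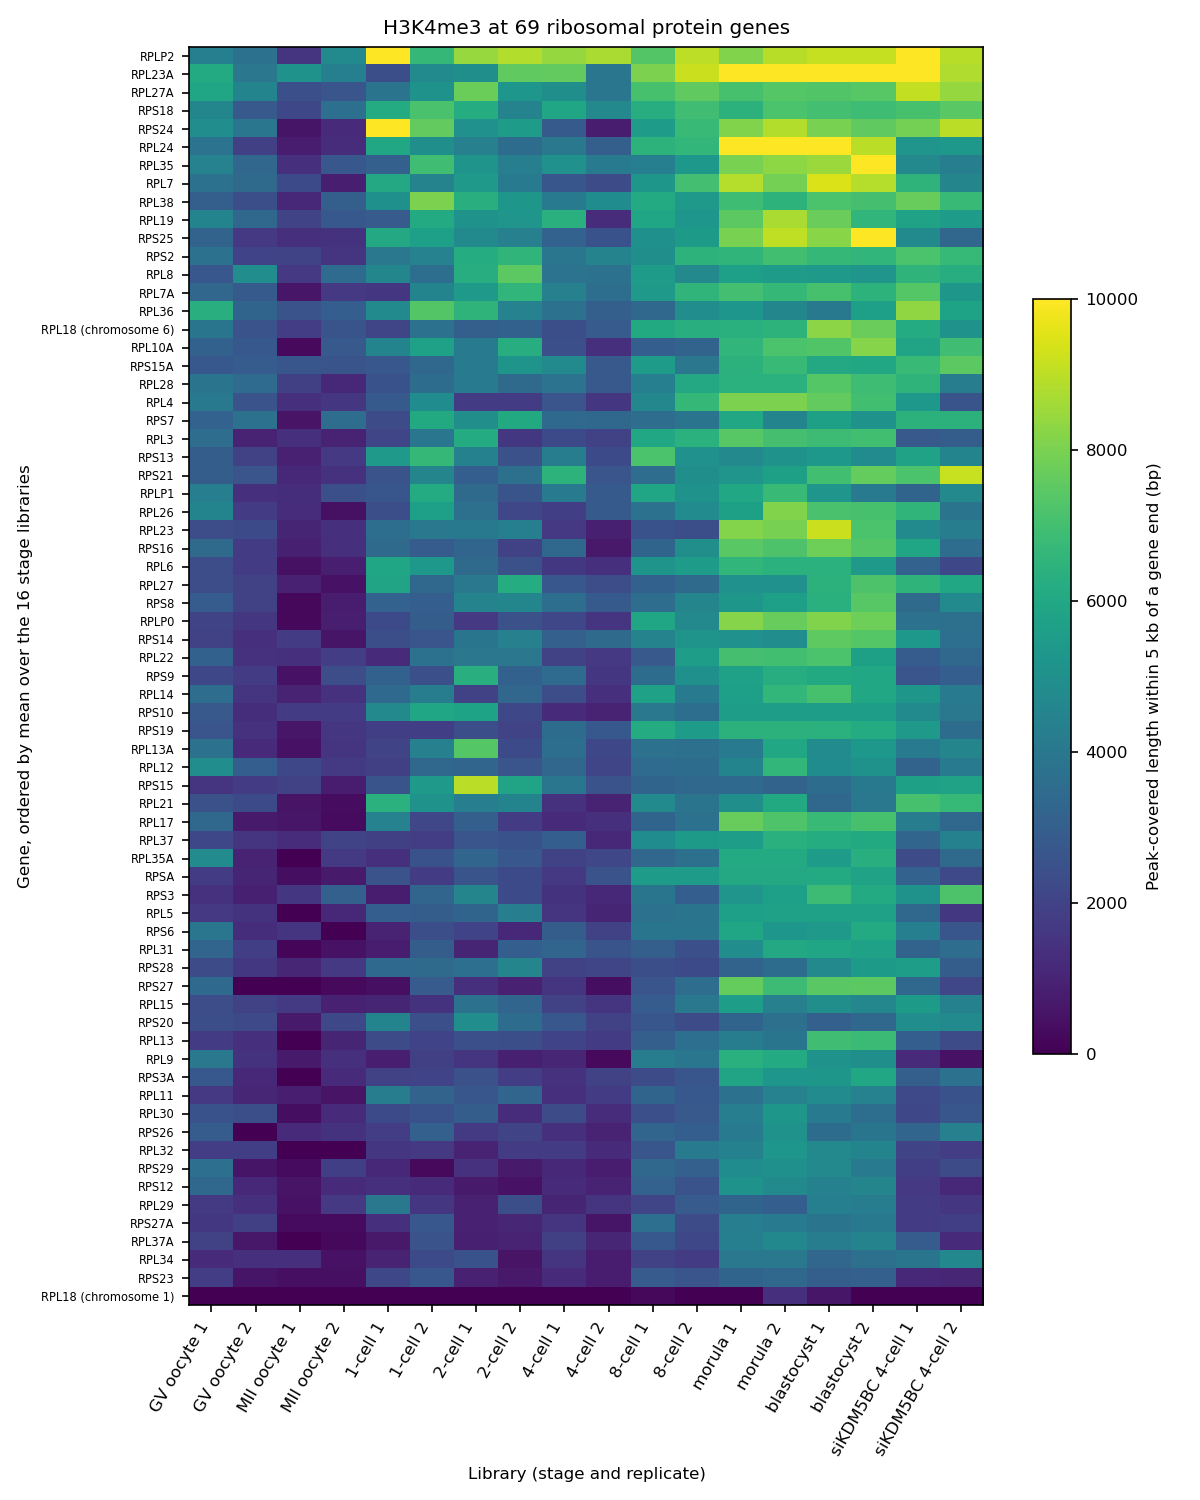
H3K4me3-covered bp within 5 kb of a gene end (colour, 0 to 10001 bp) for 69 of the 73 ribosomal protein genes (rows, ordered by their mean over the 16 stage libraries) in 18 libraries (columns). Most rows are dark in the MII oocyte and light in morula and blastocyst; RPLP2 is light from the 1-cell stage on, and the RPL18 entry on chromosome 1 is at 0 bp in 15 of the 18 and reaches 1329 bp in morula replicate 2.

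Related gene groups were counted in the same comparison of MII oocyte and blastocyst, and their differences from the ribosomal protein genes were not tested. Of 74 mitochondrial ribosomal protein genes, which serve the separate ribosome of mitochondria, 46 rose (62.2%, median 2321 bp). Of 55 translation factor genes 37 rose and 1 fell (67.3% rose, median 2831 bp), of 38 proteasome subunit genes 23 rose (60.5%, median 1919 bp), and of the 7 ribosomal protein-like paralogs 5 rose. Of 25 matched ribosome biogenesis genes 19 rose (76.0%, median 2954 bp). In the 8-cell libraries the median percentile of the biogenesis genes, 91.1 and 87.6, was near that of the ribosomal protein genes, but in the blastocyst it was 69.4 and 70.9. Among other coding genes under 10 kb, 36.2% of those tested rose.

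From the 2-cell to the 4-cell embryo, the step around major genome activation, 8 ribosomal protein genes (11.0%) fell and 0 rose, as 10.9% of all genes fell and 0.223% rose. The median difference of −705 bp was near that of all genes, −773 bp, and the 4-cell lists were also shorter (56.4 and 31.6 Mb against 128 and 108 Mb). In 33 of 73 the 4-cell values lay below both 2-cell values, beside 46.4% of all genes, and in 4 above both, beside 5.09%. Among the genes that fell were RPS15, RPS24, RPL10A, RPL21, RPL8, RPL23 and RPL5. RPS15 (chromosome 2, 77043329 to 77044749) had 8951 and 5852 bp in the 2-cell and 3937 and 2556 bp in the 4-cell embryo, and fell by 4155 ± 1034 bp (limma, BH-adjusted p = 0.0209). RPS21 had the largest positive difference, 1200.5 ± 1144 bp, which did not pass (limma, BH-adjusted p = 0.549), and RPS19 (931 bp) and RPS6 (914.5 bp) did not pass either. RPS3 and 1 further gene were marked in both 2-cell libraries and in neither 4-cell library, a pattern seen in 3.37% of all coding genes.

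The direction of this step depended on which peaks were counted. With only peaks of −log10 q of 3 or more, 13 of the 72 tested rose and 0 fell, as 15.8% of all genes rose and 0.0128% fell, and with percentile ranks in place of bp 3 rose and 2 fell (all genes 2.46% and 3.46%). Without 4-cell replicate 2, the shortest list, 0 fell (0.223% of all genes), without 4-cell replicate 1, 2 fell (4.08%), and without 2-cell replicate 1, 1 fell (3.31%).

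From the 4-cell to the 8-cell embryo, 8 of 73 rose (11.0%) and 0 fell, while 2.27% of all genes rose and 0.0513% fell. The median difference was 1774 bp for the ribosomal protein genes and 117 bp for all genes. In 60 of 73 both 8-cell values lay above both 4-cell values, as in 27.6% of all coding genes. The 8 that rose were RPS24, RPL6, RPL18 on chromosome 6, RPLP0, RPL9, RPSA, RPL21 and RPL37. RPS24 (chromosome 14, 80473867 to 80480818) had 2844 and 788 bp in the 4-cell and 5498 and 6738 bp in the 8-cell embryo, and rose by 4302 ± 1047 bp (limma, BH-adjusted p = 0.0421). RPL6 went from 1634 and 1353 bp to 5165 and 5486 bp, by 3832 ± 713 bp (limma, BH-adjusted p = 0.00876). RPL3 (2230 and 1952 bp, then 5996 and 6389 bp) and RPL7 (2660 and 2292 bp, then 5305 and 7029 bp) differed by 4101.5 and 3691 bp but did not pass. At the other extreme, RPLP2 differed by −411 bp, RPS21 by −267.5 bp and RPL31 by −182 bp, none past the threshold.

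No mitochondrial ribosomal protein gene rose at this step (0 of 74, median 553 bp), nor did any of the 7 ribosomal protein-like paralogs, beside 2.27% of all genes. Of the translation factor genes 3 of 55 rose (5.45%), of the proteasome subunit genes 3 of 38 (7.89%) and of the biogenesis genes 1 of 25 (4.0%). These lists are small, and their differences from the ribosomal protein genes were not tested. With percentile ranks 7 ribosomal protein genes rose and 0 fell (all genes 3.29% and 2.10%). The count of 8 became 1, 0, 1 and 1 without 4-cell replicate 1, 4-cell replicate 2, 8-cell replicate 1 and 8-cell replicate 2, while 0.845%, 0.451%, 1.99% and 0.830% of all genes rose. It was 0 when only the strongest peaks up to an equal covered length were used (0.488% of all genes).

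From the 8-cell embryo to the morula 13 ribosomal protein genes rose (17.8%), a share near that of all genes (18.4%), and 0 fell (1.73% of all genes). The median difference was 1446 bp against 795.5 bp over all genes, and morula lists were longer (126 and 141 Mb against 66.0 and 81.5 Mb). In 63 of 73 the groups did not overlap, the morula being higher, beside 60.5% of all genes. RPL23 (chromosome 12, 23279965 to 23285538), a core protein of the surface where the subunits meet, stood out with 2537 and 2409 bp in the 8-cell embryo and 8163 and 7949 bp in the morula, 5583 ± 774 bp more (limma, BH-adjusted p = 0.00013). RPS27, RPL17 and RPL10A followed, with rises of 4167.5, 3969 and 3771 bp. RPS13 had the most negative difference, −1229.5 ± 999 bp (limma, BH-adjusted p = 0.439), and RPL27A, RPS15 and RPS14 differed by −113, 36.5 and 165.5 bp, none past the threshold. RPS3 was unmarked in both 8-cell libraries and marked in both morula libraries, as were 3.41% of all coding genes. The count of 13 was 2 and 6 without 8-cell replicates 1 and 2 (9.15% and 9.62% of all genes), 3 and 4 without morula replicates 1 and 2 (10% and 9.59%), and 0 with percentile ranks (5.37%).

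In siKDM5BC 4-cell embryos 26 ribosomal protein genes (35.6%) had more H3K4me3 cover than in the 4-cell embryos of the stage series, a share next to that of all genes (35.5%), and 0 had less (0.0685% of all genes). The median difference was 1842 bp, against 1424 bp over all genes. Each siKDM5BC library marked 72 of the 73 (80.8% and 79.5% of all genes). Values of both siKDM5BC libraries exceeded both 4-cell values in 55 of 73, beside 70.5% of all coding genes. The siKDM5BC lists were the longest of the 18, 179 and 164 Mb against 56.4 and 31.6 Mb, and the part of list length in this result was not tested.

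RPS24 showed the largest difference, from 2844 and 788 bp to 7907 and 8956 bp, 6615.5 ± 1047 bp (limma, BH-adjusted p = 0.000452). RPL21 went from 1407 and 938 bp to 7090 and 6699 bp (limma, BH-adjusted p = 0.000149), and RPS3 from 1475 and 1132 bp to 5114 and 7209 bp. RPS3 and 1 further gene, which lacked the mark in both 4-cell libraries, had it in both siKDM5BC libraries, as did 4.07% of all coding genes. RPL10A, the protein of the mobile L1 stalk, had 2451 and 1359 bp in 4-cell and 5832 and 6937 bp in siKDM5BC embryos (limma, BH-adjusted p = 0.00366). Among the least changed, RPL35 (−115 bp), RPL18 on chromosome 1 (0 bp in all 4 libraries) and RPS23 (129 bp) did not pass.

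By rank the siKDM5BC libraries, at 73.5 and 70.9, lay below the 4-cell libraries and near the 2-cell libraries (72.9 and 71.1). With percentile ranks 2 ribosomal protein genes rose and 1 fell (all genes 2.60% and 0.622%). The count of 26 was 5 without 4-cell replicate 2 (11.7% of all genes), 13 without siKDM5BC replicate 1 (19.7%), and 0 with only the strongest peaks up to an equal covered length (0.622%). The 2-cell, 8-cell and siKDM5BC comparisons with the 4-cell stage use the same 4-cell libraries. For RPS24 the difference was −3459.5 bp from 2-cell to 4-cell, 4302 bp from 4-cell to 8-cell and 6615.5 bp from 4-cell to siKDM5BC, and for RPL21 the first was −3217.5 bp and the last 5722 bp. RPL9 had 1059 and 266 bp at the 4-cell stage, 4202 and 3940 bp at the 8-cell stage and 1231 and 477 bp after siKDM5BC.

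H3K27me3 peaks were scarce at ribosomal protein genes from the MII oocyte to the 4-cell embryo and frequent in the morula and blastocyst, while the 8-cell replicates differed. In the MII oocyte 2 and 0 of the 73 genes were marked, although these lists covered 71.4 and 61.9 Mb and marked 16.2% and 15% of all coding genes. The 2-cell libraries marked 0 in each (all genes 0.641% and 0.459%) and the 4-cell libraries 1 and 0 (4.73% and 7.47%). In the 8-cell embryo replicate 1 marked 2 genes (1.18% of all genes) and replicate 2 marked 38 (7.18%). In the morula 30 and 38 were marked (4.92% and 6.01%), and in the blastocyst 52 and 53 (22.2% and 26.0%).

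In 45 genes both blastocyst libraries had the mark, beside 16.5% of all coding genes, and in 19 both morula libraries did, beside 2.75%. All 4 of these libraries marked 17 genes (2.64% of all genes), of which 9 were also marked in 8-cell replicate 2 (0.7% of all genes). Of the 38 genes of 8-cell replicate 2, 26 were marked in both blastocyst libraries, beside 61.6% of all 73. This overlap was not tested. Some H3K27me3 library marked 67 of the 73, beside 47.9% of all coding genes. The 6 marked in none included RPLP0, RPL14, RPL13A, RPL30 and RPL27A. The 8-cell replicates, of which replicate 1 had the shorter list, gave counts too far apart for a level of the mark at that stage to be given.

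**Figure D5:**
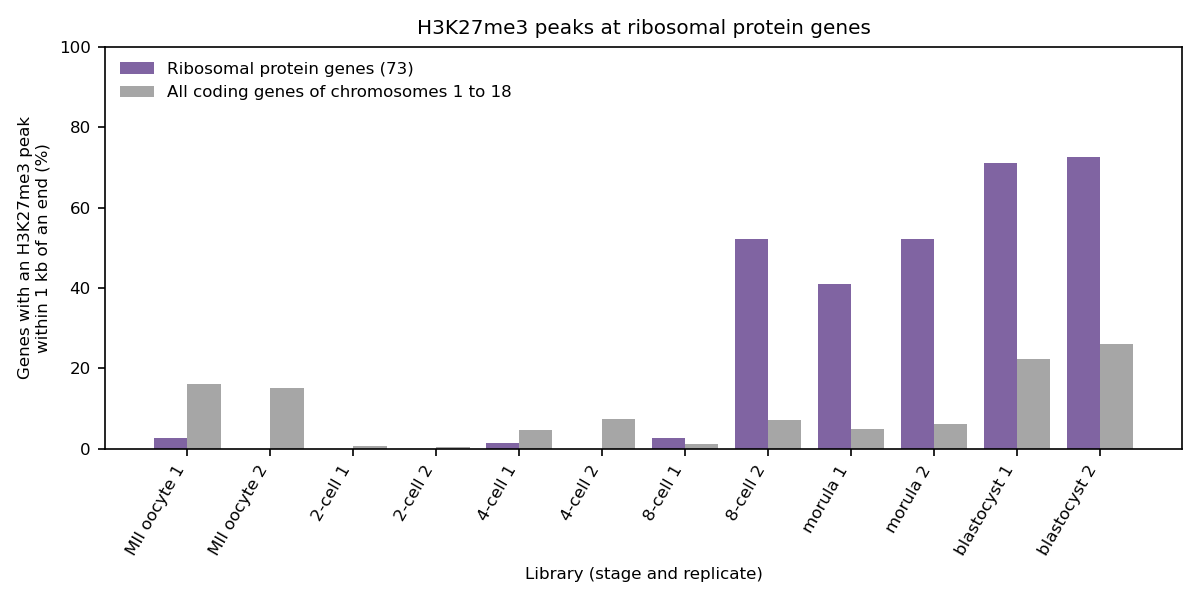
Share of the 73 ribosomal protein genes (purple) and of all coding genes (grey) with an H3K27me3 peak within 1 kb of an end (y axis, %), in each of 12 libraries (x axis). The 8-cell replicates stand at 2.74% and 52.1% of ribosomal protein genes, and the blastocyst libraries at 71.2% and 72.6%, beside 22.2% and 26.0% of all genes.

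These H3K27me3 peaks were short, had fold enrichments close to those of other H3K27me3 peaks, and lay inside H3K4me3. At ribosomal protein genes the median peak width was 429 bp in 8-cell replicate 2, 371 and 323 bp in the morula, and 709.5 and 499 bp in the blastocyst, against 643, 677, 687, 1077 and 1138 bp for the peaks at other genes of the same libraries. The median fold enrichment was 3.62, 3.84, 3.55, 3.49 and 3.32, against 3.46, 3.77, 3.72, 3.32 and 3.22. None was 5 kb or wider, while 8.23% and 9.63% of the other peaks in the blastocyst were. With only peaks of −log10 q of 3 or more, 4 ribosomal protein genes remained marked in 8-cell replicate 2 (0.182% of all genes), 6 and 5 in the morula (0.641% and 0.748%), and 13 and 11 in the blastocyst (3.5% and 4.04%).

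For this comparison H3K4me3 was taken by stage, with the same intervals set against both H3K27me3 replicates. In the morula 31 of 31 and 39 of 39 of the H3K27me3 peaks fell wholly within H3K4me3 of the same stage, and in the blastocyst 52 of 52 and 53 of 53 did. In 8-cell replicate 2 it was 38 of 41. By length, H3K4me3 peaks held 98.1% of the covered bp in 8-cell replicate 2 and 100% in the 4 later libraries, against 57.6%, 72.6%, 70.5%, 49.1% and 45.2% at other genes. Since H3K4me3 was wide there, the genes were also set beside the 10% of coding genes with most H3K4me3. Of all genes in that class 14.4% had H3K27me3 in 8-cell replicate 2, 12.1% and 14.6% in the morula, and 31.8% and 34.1% in the blastocyst. Of the ribosomal protein genes in it 23 of 44, 15 of 39, 17 of 39, 27 of 38 and 28 of 38 did. The median H3K4me3 cover of ribosomal protein genes with and without H3K27me3 was 6023 and 6442 bp in blastocyst replicate 1, and 6126 and 5972 bp in replicate 2. Whether the 2 marks sat in the same cells, and the part of wide H3K4me3 in these calls, was not tested.

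RPL7A carried H3K27me3 in more libraries than any other member, 6 of 12. Its peak at chr1:272961748-272962223 (susScr11) in morula replicate 2 had a fold of 7.31 and a −log10 q of 7.47. It lay inside an H3K4me3 interval of the morula stage of 5396 bp. Both 8-cell replicates marked it, over 360 and 1550 bp. RPL24, which had among the most H3K4me3, was the other gene marked in both 8-cell replicates, over 215 and 463 bp, and had 389 and 854 bp in the blastocyst but 0 bp in the morula. RPL3 had the widest peaks, 4547 and 3092 bp in the blastocyst, within an H3K4me3 interval of that stage of 9895 bp.

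Among 18 genes marked in both libraries of 2 or more stages were RPL10A, RPL12, RPL13, RPL23, RPL27, RPL36, RPL38, RPL9, RPS10, RPS12, RPS15 and RPS19. The share of all coding genes was not counted for this rule. For both libraries of morula and blastocyst together it was 2.64%. Some of these calls were at the floor of their lists. The morula peaks of RPL13 and RPL9 had the lowest fold of any peak there, 3.42 in replicate 1 and 3.39 in replicate 2. In morula replicate 2 the peaks of RPL12, RPL23 and RPS10 were also at 3.39. RPL10A had 947 bp in 8-cell replicate 2, 1491 and 662 bp in the morula and 1630 and 1534 bp in the blastocyst. RPS12 had 666, 517, 1394, 679 and 488 bp in the same order, and RPS19 290, 839, 272, 721 and 1206 bp. All 3 were at 0 bp in the 6 libraries of MII, 2-cell and 4-cell, and in 8-cell replicate 1. In the stalk, RPLP2 was covered over 636 bp in 8-cell replicate 2 and 319 bp in blastocyst replicate 2, RPLP1 over 272 and 318 bp in the blastocyst, and RPLP0 not at all. The RPL18 entry on chromosome 1 differed from the rest, with its only peak within 1 kb of an end in MII replicate 1 (529 bp).

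Of the mitochondrial ribosomal protein genes, H3K27me3 marked 13.5% and 18.9% in the blastocyst and 6.8% in 8-cell replicate 2. Translation factor genes had 32.7% and 40.0% in the blastocyst and 18.2% in 8-cell replicate 2, and proteasome subunit genes 26.3%, 28.9% and 5.3%. Ribosome biogenesis genes had 24.0% in each of the 3 libraries. Each of these shares lay below that of the ribosomal protein genes in the same library (71.2%, 72.6% and 52.1%), and the differences were not tested.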

How the data were processed

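The 30 libraries gave 1 broad peak list each. Per the submitters' processing notes, Bowtie2 2.4.1 and MACS2 were used with build susScr11. Any input control, the peak threshold and the filtering of reads are not given in the sources used here. In the files, the deposited columns hold peak positions, a fold enrichment ratio and −log10 p and q values, which the authors' caller gave for each library without further normalization. Gene positions came from RefSeq (Sscrofa11.1), matched by symbol. Covered bp were tested with limma 3.58.1 in R 4.3.3 (9 group means, trended and robust variance, genes with cover in at least 2 of 18 H3K4me3 libraries), two-sided. BH adjustment was over all genes, separately within each of the 5 contrasts. The limma step was tested on simulated data. Counts of marks were not tested, nor were lists. Members, lists and comparisons were chosen with earlier results of these data known. Named genes were the 6 with the lowest and highest mean H3K4me3, the 4 with the largest increases and decreases in each contrast, up to 15 unmarked by H3K4me3 in at least 1 stage library, up to 15 marked by H3K27me3 in both libraries of a group, and 12 fixed for their role. Genes on X, other chromosomes and unplaced sequences were not part of the set. Alternatives changed the peak threshold, list length, joining of peaks, window, filter, scale, block and libraries. A few of the named genes are not reported here.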

Additional observations from a re-analysis of the deposited data

How the results depend on the processing

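Of 214 repeats of the counts and medians, 145 kept their direction and stayed near the reported value, 65 moved and 4 medians reversed. The 145 were 112 counts and 33 medians, the latter within 463 bp of the reported value. Many of the 112 were counts of 0 that stayed at 0, so the tally says little about the counts above 0. The rise from MII oocyte to blastocyst held under every alternative run, with 49 (equal covered length; 26.2% of all genes) to 72 genes (−log10 q of 3 or more; 82.9%) higher of 72 tested, and 50 with percentile ranks, an alternative chosen after seeing the data (16.3% of all genes). At −log10 q of 3 or more the MII libraries marked 0.171% and 1.91% of all genes, so nearly any gene marked in the blastocyst had to rise. With peaks of −log10 q of 3 or more, the 2-cell to 4-cell step had 13 genes higher (15.8% of all genes) and 0 lower (0.0128%), siKDM5BC 17 higher (30.8%), and H3K4me3 in every stage library 0; H3K27me3 marked 5 in both blastocyst libraries and 0 and 4 in 8-cell replicates 1 and 2. With fold of 3.5 or more, 0 were lower from 2-cell to 4-cell (0.0425%), 2 higher from 4-cell to 8-cell (0.801%) and 11 in siKDM5BC (19.6%); 0 had H3K4me3 in every stage library, and H3K27me3 marked 13 in both blastocyst libraries and 23 in 8-cell replicate 2. With the strongest peaks up to an equal covered length (31.6 Mb), 0 were lower from 2-cell to 4-cell (0.121%), 0 higher from 4-cell to 8-cell (0.488%), 3 from 8-cell to morula (3.96%) and 0 in siKDM5BC (0.622%). With peaks under 3 kb apart joined, these counts were 23, 5, 3 and 15 (21.1%, 1.89%, 10.3% and 22.2%), with a 2.5 kb window 2, 1, 2 and 16 (4.09%, 1.28%, 14.1% and 26.0%), and with log2(bp + 100) 5, 2, 1 and 15 (7.79%, 1.07%, 7.62% and 20.8%). With percentile ranks, 3 were higher and 2 lower from 2-cell to 4-cell (2.46% and 3.46%), 0 higher from 8-cell to morula (5.37%), and 2 higher and 1 lower in siKDM5BC (2.60% and 0.622%). Where 50% of a 1 kb window had to be covered, 3 genes had H3K4me3 in every stage library, and H3K27me3 marked 0 in both blastocyst libraries and 0 and 1 in the 8-cell replicates. Leaving out each replicate gave 0 to 8 lower from 2-cell to 4-cell (0.223% to 10%), 0 to 1 higher from 4-cell to 8-cell (0.451% to 1.99%), 2 to 6 from 8-cell to morula (9.15% to 10%) and 5 to 19 in siKDM5BC (11.7% to 30.7%). A fit with an arm of 1 library assumes that this library varies like the others. The median change from 2-cell to 4-cell reversed to 1523.8, 743.5 and 866.0 bp with −log10 q of 3, fold of 3.5 and equal covered length, and that of siKDM5BC to −468.8 bp with equal covered length. The cause was not tested. Same-numbered libraries did not deviate together: over 36 pairs of groups the correlation ran from −0.176 to 0.245 (median 0.00737), with 1 pair over 0.1. With the replicate number as a block, 4 genes were higher from 4-cell to 8-cell (1.91% of all genes), 6 lower from 2-cell to 4-cell (9.94%), and 13, 68 and 25 higher in the other comparisons (17.6%, 37.2% and 34.4%). The alternative with the annotated start alone was not run, and read depth, which the lists do not give, limits every count of peaks.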

Other observations

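The 4 ribosomal protein genes of chromosome X, which the set does not include, had more H3K4me3 in the 8-cell than in the 4-cell embryo, while their earlier values differed. In the MII oocyte RPS4X had 913 and 1485 bp, RPL36A 538 and 316 bp, RPL39 0 and 925 bp, and RPL10 1089 and 2486 bp. RPS4X, of the small subunit, had 0 and 329 bp in the 1-cell and 274 and 0 bp in the 2-cell embryo, all below its MII values. It had 981 and 504 bp in the 4-cell embryo, then 4619 and 4574 bp in the 8-cell embryo, 5822 and 6293 bp in the morula and 5783 and 5157 bp in the blastocyst. RPL39 had 1702 and 1696 bp in the 4-cell, 4456 and 3002 bp in the 8-cell embryo and 4671 and 5731 bp in the blastocyst. RPL36A had 328 and 199 bp, then 2808 and 1792 bp, then 5113 and 7078 bp at the same stages. RPL10 had 1318 and 0 bp at the 4-cell stage, 3274 and 3519 bp at the 8-cell stage, and 6178 and 4585 bp after siKDM5BC. For each of the 4 genes both 8-cell values lay above both 4-cell values. The same held for 27.6% of all coding genes, a set without chromosome X. The share among chromosome X genes was not counted. H3K27me3 was at 0 bp at all 4 genes in every MII, 2-cell, 4-cell and 8-cell library. In the blastocyst libraries it covered 234 to 986 bp of RPL36A and RPL10, which were at 0 bp in the morula. RPS4X had 533 bp in morula replicate 2 and 334 bp in blastocyst replicate 2. RPL39 had 404 bp in morula replicate 1 and 479 bp in blastocyst replicate 1. Both were at 0 bp in the other replicate of each stage.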
